A study of Mus musculus with 10 samples.

Results

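The Purkinje cell markers described here are 9 genes, Pcp2, Pcp4, Calb1, Pvalb, Car8, Itpr1, Ppp1r17, Rgs8 and Slc1a6, taken as the rows of the count tables that carry these symbols, out of 50559 genes in all. They were read in 10 RNA sequencing libraries from formalin-fixed, paraffin-embedded (FFPE) mouse tissue. There were 4 MYC/SMARCA4 tumors, grown in CD1nu/nu mice after stereotactic transplantation of granule cell precursors (GCPs), the cells from which granule neurons and SHH medulloblastoma arise. The donors were Math1-creERT2::Smarca4fl/fl pups given tamoxifen on day 3, their cells were taken a few days later, and the transplanted cells carried a lentivirus that drives murine Myc from a CMV promoter together with GFP and were not sorted. The tumor samples were biopsy punches from mice labelled as 112, 96, 89 and 79 days old for tumors 1 to 4. As controls, 3 whole cerebella came from Math1-creERT2::Smarca4fl/fl mice of postnatal day 7 (P7) given 0.4 mg tamoxifen on day 3, and 3 SHH medulloblastomas (SHH MB) came from Math1-cre::Smofl/wt mice with a labelled age of 7 days, in which Cre acts in the Math1 (Atoh1) lineage from embryonic life on. Smarca4 could thus recombine in the tumor cells and in part of the P7 cerebella, but not in SHH MB. The tumor mice were weeks older than the mice of both control groups, and age and group cannot be told apart.

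Purkinje cells are the large GABAergic neurons that form the output of the cerebellar cortex. They arise from Ptf1a-positive progenitors of the ventricular zone, not from the Math1 lineage of the GCPs, and they settle below the precursors and send them Shh. Climbing and parallel fibres excite them, and signals at the parallel fibre synapse release calcium from internal stores, so that many genes particular to these cells encode parts of a calcium cascade. Calb1 and Pvalb encode calcium buffers, Itpr1 the store's inositol trisphosphate receptor and Car8 a protein that binds this receptor. Rgs8 and Pcp2 act on G proteins, Pcp4 on calmodulin, and Ppp1r17 inhibits protein phosphatases, while Slc1a6 is the glutamate transporter EAAT4. The markers are not all limited to Purkinje cells: Pvalb, for example, is also made by molecular layer interneurons and fast skeletal muscle, and Itpr1 by many cells. Whether the other markers are limited to Purkinje cells was not tested.

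The 250 bases before the start of the canonical transcript of each marker (GENCODE) were read from GRCm39 because the markers moved together. For Pcp2, Calb1, Pvalb, Ppp1r17 and Rgs8 other transcripts start farther upstream, so that this start lies 29 (Calb1) to 4833 bases (Ppp1r17) inside the annotated gene, and the windows of Pcp2, Calb1, Pvalb and Rgs8 hold 22 to 73 bases of other annotated exons. The nuclear receptor core motif AGGTCA, the form bound by RORalpha, a factor that Purkinje cells need to mature, was searched on both strands and overlapped no other motif searched. It stood in the windows of 2 of the 9 markers, Pcp2 and Pcp4, and in 13.1% of the 21736 windows of protein-coding genes. The letters TATAAA were in 0 of 9 marker windows and 11.9% of all windows, and TAATTA in 0 of 9 and 5.16%. These matches are letters only. Below, AGGTCA or its reverse complement is in capitals. Pcp2 is shown from the last 30 bases before its start (chr8:3675050-3675079, minus strand), and Pcp4 over the whole window (chr16:96268556-96268805, plus strand), since they hold the match. Ppp1r17 (chr6:55994202-55994451, plus strand) and Slc1a6 (chr10:78615931-78616180, plus strand) are shown as the markers with the largest and the smallest fitted change between tumors and P7 cerebella, and neither window holds it.
Pcp2: ttgggggagtcaggggcAGGTCAgggaagg
Pcp4: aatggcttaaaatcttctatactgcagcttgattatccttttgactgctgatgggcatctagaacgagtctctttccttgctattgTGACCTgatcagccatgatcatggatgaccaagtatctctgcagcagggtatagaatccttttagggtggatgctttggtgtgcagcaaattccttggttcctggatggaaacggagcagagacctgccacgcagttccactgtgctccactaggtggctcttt
Ppp1r17: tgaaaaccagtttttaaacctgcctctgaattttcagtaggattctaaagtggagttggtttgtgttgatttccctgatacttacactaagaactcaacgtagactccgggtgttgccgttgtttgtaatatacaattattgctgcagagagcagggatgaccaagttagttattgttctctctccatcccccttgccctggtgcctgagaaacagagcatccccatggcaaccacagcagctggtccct
Slc1a6: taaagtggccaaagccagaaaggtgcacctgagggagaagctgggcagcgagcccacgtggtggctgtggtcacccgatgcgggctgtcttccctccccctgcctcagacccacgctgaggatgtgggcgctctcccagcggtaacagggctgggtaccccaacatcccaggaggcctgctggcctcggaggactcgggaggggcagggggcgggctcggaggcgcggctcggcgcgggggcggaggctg

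The libraries held 5663491 to 9352109 gene counts. Levels are given as counts scaled to library size with TMM factors (CPM), in which 3 counts, the limit that a count of 0 allows, correspond to 0.304 to 0.737 CPM. Myc was above every control library in all 4 tumors, with 151 CPM in tumor 1, 365 in tumor 2, 1574 in tumor 3 and 1007 in tumor 4 against at most 45.4. Smarca4 was at 135 to 242 CPM in the tumors, 219 to 279.7 in P7 cerebella and 486 to 585 in SHH MB; the counts cover the whole gene and do not tell the recombined allele apart. Tumor 1 stood apart: 8 proliferation genes summed to 117 CPM there, with 1647 to 1880.2 in tumors 2 to 4 and 737 to 992 in P7 cerebella, and its share of mitochondrial counts was the highest at 6.36%. The results of the markers, and the calls of the gene lists described with them, are therefore also given without it.

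All 9 markers were detected in every library, and their sum separated the tumors from each other more than it separated the groups. Together they took 0.819% of all counts in tumor 1, 0.259% in tumor 2, 0.187% in tumor 4 and 0.0492% in tumor 3. The same share was 0.179 to 0.183% in the P7 cerebella and 0.0377 to 0.0737% in SHH MB. In this summed share tumors 1 and 2 were thus above all P7 cerebella, tumor 4 just above them, and tumor 3 within the range of SHH MB. Itpr1, which many cells make, weighs most in it. It took 53.4, 63.5, 74.3 and 66.9% of the marker counts in tumors 1 to 4. Its part was 39.4 to 39.7% in P7 cerebella and 52.4 to 57.5% in SHH MB. Taken singly, 4 of the 9 markers were above the P7 mean in tumor 2 and 4 in tumor 4. In these bulk samples a different number of Purkinje cells and a different amount of RNA per cell cannot be told apart. The part of recipient cerebellum in the tumor punches was not tested.

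The order of the tumors, 1 above 2, then 4, then 3, was the same for all 9 markers. Tumor 1 exceeded tumor 3 by 15.0-fold for Slc1a6, 24.5-fold for Itpr1 and 102-fold for Calb1, with the other 6 markers between 40.2- and 89.0-fold. Within the P7 cerebella, the SD of the log2 CPM was 0.07 for Itpr1 and Pcp2 and at most 0.47, for Ppp1r17, against 1.63 to 2.72 in the tumors. Over the 10 libraries each marker followed the mean of the other 8 with Pearson's r between 0.84 for Pcp4 and 0.97 for Calb1. These correlations describe libraries that share depth and group and carry no test.

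**Figure D1:**
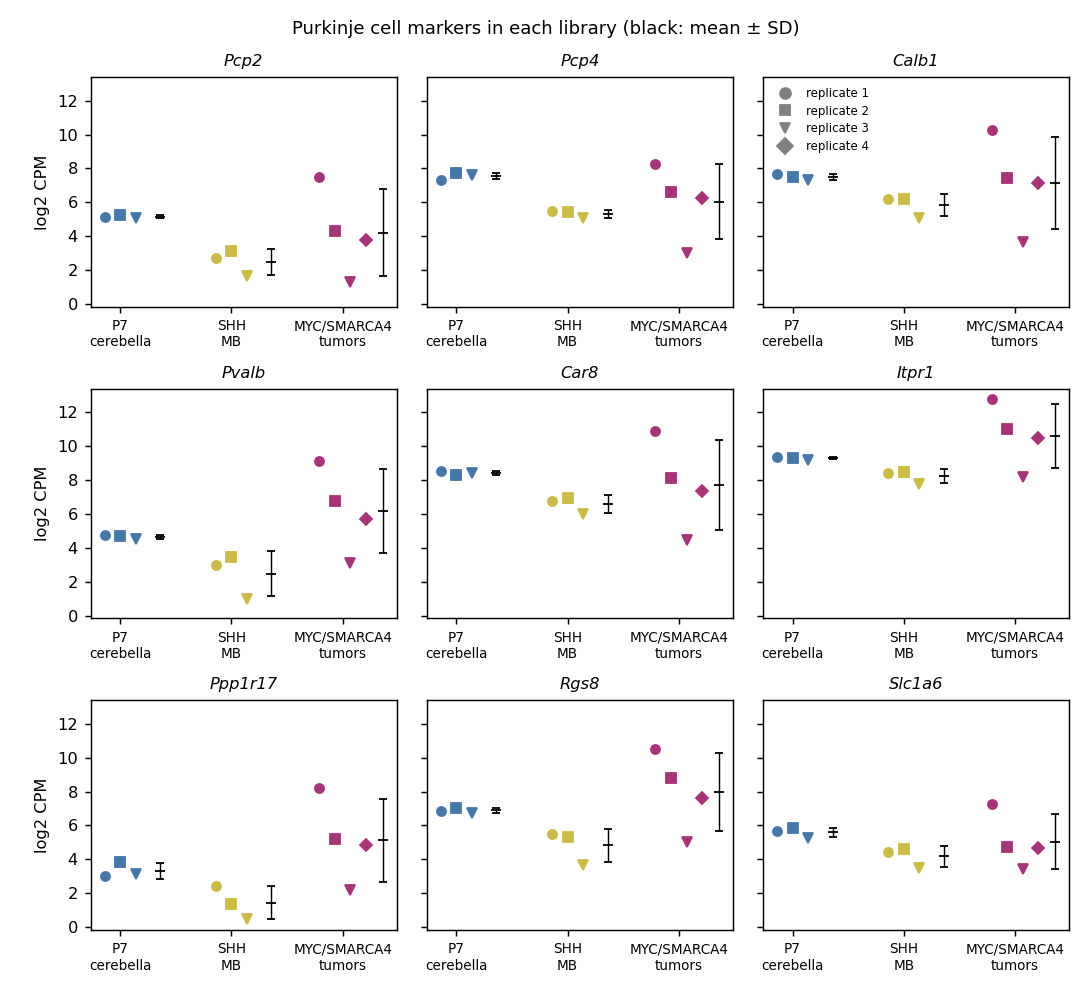
Log2 CPM (y axis, prior count of 2) of the 9 Purkinje cell markers in 3 P7 cerebella (blue), 3 SHH MB (yellow) and 4 MYC/SMARCA4 tumors (purple), with 1 symbol per replicate number and the group mean ± SD in black. Tumor 1 is highest and tumor 3 lowest of the tumors in every panel, and the SHH MB lie below the P7 cerebella in every panel.

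Calb1 and Pvalb, the calcium buffers, differed in how they stood to the P7 cerebellum. Calb1 (chromosome 4, 15881155 to 15908085, plus strand, 11 exons) was at 1247 CPM in tumor 1, 173 in tumor 2, 12.2 in tumor 3 and 142 in tumor 4. It was at 207, 178 and 161 CPM in the P7 cerebella and at 72.2, 74.4 and 33.9 CPM in SHH MB. Tumors 2 and 4 were therefore at 95.2% and 78.0% of the P7 mean, tumor 1 far above it and tumor 3 below all other libraries. Pvalb (chromosome 15, 78075314 to 78091149, minus strand, 4 exons) was at 568 CPM in tumor 1, 106 in tumor 2, 8.33 in tumor 3 and 52.6 in tumor 4. The P7 cerebella held 26.3, 25.5 and 22.2 CPM and SHH MB 7.71, 10.6 and 1.69 CPM. For Pvalb 3 of the 4 tumors were above all P7 cerebella, tumor 2 at 431% and tumor 4 at 213% of their mean.

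The genes of the calcium store split in the same way. Itpr1 (chromosome 6, 108190048 to 108528070, plus strand, 62 exons) was the most abundant marker of the tumors, with 7032 CPM in tumor 1, 2039 in tumor 2, 287 in tumor 3 and 1416 in tumor 4. Its levels were 648, 638 and 593 CPM in P7 cerebella and 342, 358 and 215 CPM in SHH MB. Tumors 1, 2 and 4 exceeded the P7 cerebella, and tumor 3 lay between SHH MB replicates. Car8 (chromosome 4, 8141533 to 8239088, minus strand, 9 exons), whose product lowers the affinity of the receptor for its ligand, was at 1903, 276, 21.4 and 163 CPM in tumors 1 to 4. P7 cerebella held 376, 318 and 345 CPM and SHH MB 109.5, 123 and 62.3 CPM. Only tumor 1 exceeded the P7 cerebella for Car8, and tumors 2 and 4 stood at 79.6% and 46.9% of their mean.

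The regulators Rgs8 and Ppp1r17 were above the P7 cerebella in tumors 1, 2 and 4. Rgs8 (chromosome 1, 153528714 to 153576069, plus strand, 7 exons), which speeds the inactivation of G proteins, was at 1479.7, 439, 32.6 and 199.8 CPM in tumors 1 to 4. The P7 values were 117, 133 and 106 CPM and the SHH MB values 44.3, 39.3 and 12.5 CPM. Ppp1r17 (chromosome 6, 55989619 to 56009674, plus strand, 5 exons), also known as G-substrate, was at 300.5 CPM in tumor 1, 36.2 in tumor 2, 4.30 in tumor 3 and 28.9 in tumor 4. P7 cerebella held 7.80, 14.3 and 8.35 CPM and SHH MB 5.09, 2.34 and 1.13 CPM, the lowest of these from 8 counts. Ppp1r17 was the marker farthest above P7 in tumor 1, at 2961% of the P7 mean.

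Pcp2, Pcp4 and Slc1a6 were above the P7 cerebella in tumor 1 alone. Pcp2 (chromosome 8, 3673371 to 3675545, minus strand, 4 exons), known as L7 and much used to mark Purkinje cells, was at 182, 19.3, 2.22 and 13.2 CPM in tumors 1 to 4. P7 cerebella held 35.0, 37.5 and 34.0 CPM and SHH MB 6.17, 8.65 and 2.82 CPM. Pcp4 (chromosome 16, 96268806 to 96326997, plus strand, 4 exons) was at 313, 95.8, 7.77 and 77.3 CPM in the tumors, 161, 209 and 194 CPM in P7 cerebella and 44.6, 42.9 and 33.4 CPM in SHH MB. Slc1a6 (chromosome 10, 78616181 to 78650614, plus strand, 10 exons) was at 156, 26.4, 10.4 and 25.2 CPM in the tumors, 51.2, 56.5 and 38.8 CPM in P7 cerebella and 21.6, 23.7 and 10.8 CPM in SHH MB. For these markers tumors 2 and 4 were at 37.2 to 54.4% of the P7 mean.

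**Figure D2:**
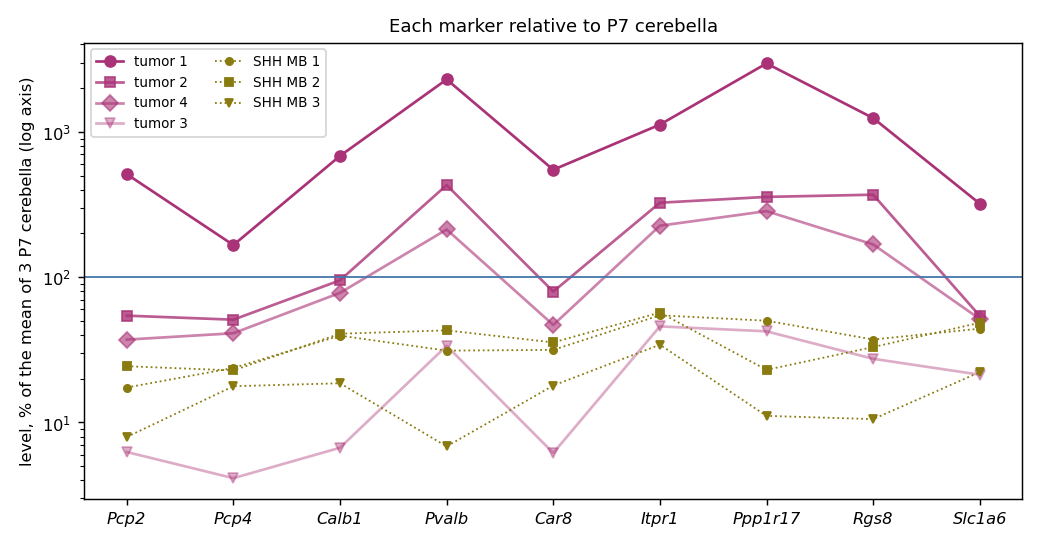
Level of each marker (x axis) in each tumor (purple) and SHH MB (dotted) as a percentage of the mean of the 3 P7 cerebella (y axis, log scale; blue line at 100%). In tumors 2 and 4 Pvalb, Itpr1, Ppp1r17 and Rgs8 lie above the line and the other 5 markers below it, while tumor 1 is above it for all 9 and tumor 3 below it for all 9.

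Per kilobase of annotated exon, Pcp4 was the highest marker of the P7 cerebella at 168 ± 21.8 CPM per kb (SD, n = 3), followed by Itpr1 at 34.2 ± 1.61. Calb1 (25.7 ± 3.30), Car8 (23.2 ± 1.92), Slc1a6 (20.7 ± 3.87) and Pcp2 (19.4 ± 0.987) came next, and the ranges of neighbours in this order overlapped. Rgs8 stood below them at 10.7 ± 1.23, apart from both its neighbours. Pvalb (6.63 ± 0.588) and Ppp1r17 (4.40 ± 1.56) were lowest and overlapped with each other. In the tumors Itpr1 led with 147 ± 163 CPM per kb (SD, n = 4), before Pcp4 with 110 ± 118, and all neighbours in the order overlapped. Pet100 overlaps Pcp2 on the opposite strand, 7 annotated genes overlap Itpr1, 2 overlap Car8 and 1 overlaps each of Pcp4, Rgs8 and Slc1a6, and since the strand setting of the counting is not given, their reads may not be told apart; Calb1, Pvalb and Ppp1r17 overlap no annotated gene.

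The comparison of tumors with P7 cerebella asks how the tumor tissue stands to the developing cerebellum. Of the 9 markers, 8 were fitted higher and Pcp4 lower, and in none were the 2 groups apart. The largest fitted changes were those of Ppp1r17 (log2 fold change 3.18, 95% interval 0.87 to 5.48), Pvalb (2.89, 0.64 to 5.14), Rgs8 (2.18, 0.24 to 4.11) and Itpr1 (2.10, 0.44 to 3.77). Those of Calb1 (1.11), Car8 (0.77), Pcp2 (0.60), Slc1a6 (0.15) and Pcp4 (-0.61) had intervals that include 0. The median was 1.11 against -0.051 over all 29952 genes tested. In edgeR's quasi-likelihood test 0 of 9 passed an adjusted p of 0.05 (range 0.0912 to 0.896), where 3.99% of all genes were called higher and 2.27% lower; 4 markers had an unadjusted p under 0.05, DESeq2 called 3 (Itpr1, Ppp1r17 and Rgs8; 10.4% of all genes higher) and limma on the deposited VST values 0 (3.08%). The limma median was -0.29, opposite in sign to that of edgeR.

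Single tumors decided these calls. Without tumor 1 the median turned to -0.86 and Pcp2 (log2 fold change -1.74, edgeR adjusted p = 0.0402) and Slc1a6 (-1.35, adjusted p = 0.0180) fell, where 6.11% of all genes were called lower. Without tumor 3, 4 markers were called higher, namely Pvalb (3.02, adjusted p = 0.0133), Itpr1 (2.24, adjusted p = 0.00793), Ppp1r17 (3.29, adjusted p = 0.0114) and Rgs8 (2.32, adjusted p = 0.0157), where 11.8% of all genes were called higher.

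Against SHH MB, the second control, which asks how the tumors differ from an established medulloblastoma model, all 9 markers were fitted higher and 4 rose. They were Ppp1r17 (log2 fold change 5.02 ± 1.20 SE, edgeR adjusted p = 0.0329), Pvalb (4.77 ± 1.16, 0.0350), Rgs8 (4.07 ± 0.99, 0.0351) and Itpr1 (3.14 ± 0.81, 0.0444). The others did not pass: Pcp2 (3.18), Calb1 (2.71), Car8 (2.58), Pcp4 (1.61) and Slc1a6 (1.53) had adjusted p between 0.122 and 0.265. The median was 3.14 against 0.0081 over all genes, and 2.43% of all genes were called higher and 2.26% lower. In none of the 9 were the groups apart, because tumor 3 lay within or below the SHH MB.

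The 4 calls depended on which libraries entered the fit. Without tumor 1 the same 4 markers passed, with smaller changes between 1.90 and 2.91 and 5.0% of all genes called higher, and the median of all 9 fell to 0.82. Without tumor 3, 8 of the 9 were called, where 9.57% of all genes were called higher. Without tumor 2, 1 was called (Ppp1r17; 1.29% of all genes), and without any single library of either control group 0 were called, in fits of fewer samples. The tumors and SHH MB fitted alone gave 0 calls, DESeq2 gave 5 (6.71% of all genes) and limma 0 (1.59%).

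**Figure D3:**
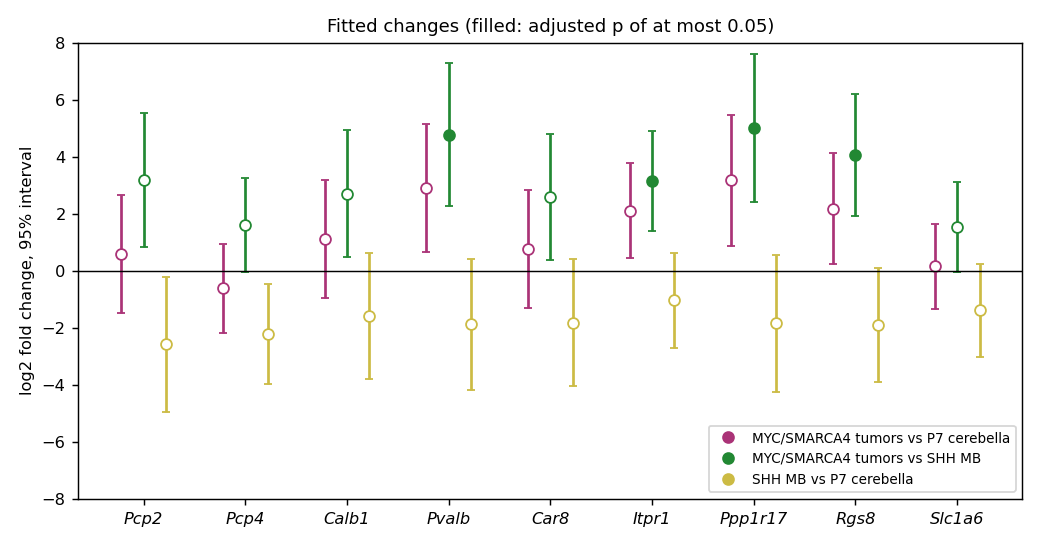
Fitted log2 fold change (y axis) with its 95% interval for each marker in 3 comparisons (tumors against P7 cerebella, tumors against SHH MB, and SHH MB against P7 cerebella), filled where the adjusted p is at most 0.05. The 4 filled points are Pvalb, Itpr1, Ppp1r17 and Rgs8 in tumors against SHH MB, and the 2 tumor comparisons share the same 4 tumor libraries.

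Between the 2 control groups the markers moved in the same direction. Every SHH MB was below every P7 cerebellum for all 9, which 19.0% of all genes also showed. The fitted log2 fold changes ran from -1.04 for Itpr1 to -2.58 for Pcp2, with a median of -1.84 against -0.088 over all genes. In the fit of all 10 libraries, whose spread includes that between tumors, 0 of 9 passed in edgeR (2 with an unadjusted p under 0.05), DESeq2 and limma, with 0.177% of all genes called higher and 0.0467% lower. In the fit of these 2 groups alone all 9 were called lower, where 10.3% of all genes were. Over markers and libraries, SHH MB held 6.84 to 57.1% of the P7 mean.

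The balance among the markers differed between tumors and controls even where their sum did not. For every 100 counts of Calb1 there were 45.5, 61.3, 68.2 and 37.0 counts of Pvalb in tumors 1 to 4. In P7 cerebella there were 12.7, 14.3 and 13.8, and in SHH MB 10.7, 14.3 and 4.98. Every tumor exceeded every control, including tumor 3 with its 60 Pvalb and 88 Calb1 counts. The log2 ratio was -0.96 ± 0.40 in the tumors (SD, n = 4), -2.88 ± 0.09 in P7 cerebella (n = 3) and -3.43 ± 0.76 in SHH MB (n = 3). The difference was 1.92 to P7 cerebella (3.79-fold) and 2.47 to SHH MB (5.55-fold), with a two-sided exact permutation p of 0.0286 in each, the smallest that 4 against 3 samples allow, and 0.0286 after adjustment over the 2 tests. Without tumor 1 the differences were 1.98 and 2.53.

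Of the other 7 markers, 3 more were raised against Calb1 without overlap between tumors and P7 cerebella. Counts of Itpr1 per 100 of Calb1 were 564, 1175, 2351 and 996 in tumors 1 to 4 against 312 to 367 in P7 cerebella. Counts of Ppp1r17 were 20.3 to 35.2 in the tumors and 3.76 to 8.02 in P7 cerebella, and those of Rgs8 119 to 267 and 56.6 to 74.8. In the other direction Pcp4 was at 25.1 to 63.6 in the tumors and 77.6 to 120.2 in P7 cerebella, and Car8 at 114 to 175 and 179 to 214. Pcp2 (9.27 to 18.2 against 16.8 to 21.1) and Slc1a6 (12.6 to 85.2 against 24.0 to 31.7) overlapped. With Pvalb, 4 of 8 markers were thus higher and 2 lower without overlap, where 1.43% and 0.160% of all genes had this pattern against Calb1. Relative to SHH MB, 3 of 8 were higher without overlap, Pvalb, Ppp1r17 and Rgs8, against 0.157% of all genes, and Itpr1 overlapped (474 to 633 in SHH MB). Calb1 itself differed 102-fold between tumors 1 and 3, so the ratio of a gene that did not follow Calb1 spread widely over the tumors. The shares of all genes are therefore no fair measure for markers that follow Calb1. These ratios other than that of Pvalb were computed after the values had been seen and are a description.

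**Figure D4:**
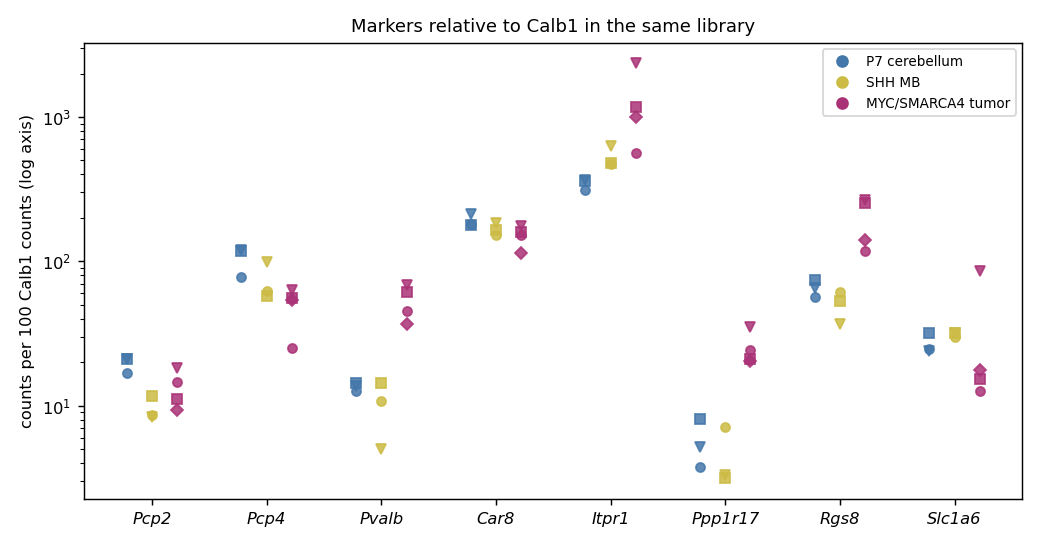
Counts of each marker per 100 counts of Calb1 in the same library (y axis, log scale) in P7 cerebella (blue), SHH MB (yellow) and tumors (purple), with 1 point per library and symbols by replicate number. Pvalb, Itpr1, Ppp1r17 and Rgs8 are higher in every tumor than in every P7 cerebellum, and Pcp4 and Car8 lower.

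A list of 16 further genes of G protein and calcium signalling in Purkinje cells ran in the same order of tumors as the markers. Its summed level was 11395 CPM in tumor 1, 4605 in tumor 2, 941 in tumor 3 and 2889 in tumor 4, 2524 to 2895 in P7 cerebella and 1352 to 1499 in SHH MB. In tumors against P7 cerebella 12 of 16 were fitted higher, with a median of 0.83, and 1 rose, Camk2a, a calmodulin kinase of many neurons (log2 fold change 2.63, edgeR adjusted p = 0.0425), against the 3.99% of all genes called higher. DESeq2 called 2 of the list and limma 0, and without tumor 1 Camk2a alone was called (2.64, edgeR adjusted p = 0.0208) while the median turned to -0.39. Against SHH MB 15 of 16 were fitted higher and 2 rose: Camk2a (3.56, adjusted p = 0.0168) and Gng13, a G protein subunit (4.88, adjusted p = 0.0367), with 2.43% of all genes called higher. DESeq2 called 9 of the 16, where it called 6.71% of all genes higher, and limma 1. Both Camk2a (3.53) and Gng13 (2.73) passed without tumor 1, with edgeR adjusted p of 0.00756 and 0.0267. Gng13 was at 124, 14.1, 1.67 and 12.3 CPM in tumors 1 to 4 and at 1.13 to 1.39 CPM in SHH MB.

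The 12 transcription factors of the Purkinje lineage summed to 3014, 1613, 786 and 1130 CPM in tumors 1 to 4, 1436 to 1698 in P7 cerebella and 1260 to 1349 in SHH MB. This sum ran in the same order of tumors but over a smaller range than the markers. Rora, given below, is a large part of it, and single factors differed: Lhx1 was lowest in tumor 4 and Foxp2 in tumor 1. In tumors against P7 cerebella 2 of them fell, where 2.27% of all genes were called lower. They were Olig2 (log2 fold change -1.76, edgeR adjusted p = 0.0105), which marks early progenitors and the oligodendrocyte lineage, and Bhlhe22 (-1.17, adjusted p = 0.0445). DESeq2 called 3 of the 12 lower, where it called 1496 of 29952 genes lower, and limma 1, where it called 713. Their median by edgeR was -0.38, and without tumor 1 it was -1.19. In that fit 6 were called lower (Skor2, Olig2, Esrrb, Lhx1, Lhx5 and Bhlhe22) and Foxp2 higher, where 6.11% of all genes were called lower and 9.64% higher. Against SHH MB Olig2 alone was called by edgeR, lower (-3.87, adjusted p = 6.26e-05), where 2.26% of all genes were. Without tumor 1, Olig2, Ebf2 and Lhx1 were called lower than in SHH MB and Foxp2 higher. Of 29877 genes 1418 were called lower there and 1494 higher. In SHH MB against P7 cerebella Olig2 alone was called by edgeR, higher (2.12, adjusted p = 0.0267), where 0.177% of all genes were. Rora, which encodes RORalpha, was at 2489, 1084, 308 and 719 CPM in tumors 1 to 4, 888 to 1113 in P7 cerebella and 699 to 797 in SHH MB. Lhx1, a factor of young Purkinje cells, was at 84.0, 38.4, 23.3 and 15.8 CPM in the tumors and at 80.8 to 95.4 in P7 cerebella. Skor2, which is particular to Purkinje cells in the cerebellum, was at 36.9, 6.60, 3.61 and 7.74 CPM in the tumors, and at 13.3 to 15.5 in P7 cerebella. Ptf1a was at or near the limit of detection, from 0 counts in tumor 1 to at most 1.52 CPM. Foxp2 was at 37.6 CPM in tumor 1 and 68.3 to 116 in the other tumors, unlike the order of the markers.

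Another 12 genes of Purkinje cells, among them Dner, Gad1, Kcnma1 and Shh, gave 0 calls in edgeR in each comparison. An unadjusted edgeR p under 0.05 was found for 1, 6 and 3 in tumors against P7 cerebella, tumors against SHH MB and SHH MB against P7 cerebella. DESeq2 called 0, 3 and 0, with 6.71% of all genes called higher against SHH MB, and limma 0 in each. Without tumor 1, 2 of them, Shh and Stmn3, were called lower than in P7 cerebella by edgeR, where 6.11% of all genes were. Dner, a Notch ligand on the dendrites, was at 924, 131, 9.44 and 85.8 CPM in tumors 1 to 4 against 155 to 183 in P7 cerebella. Shh, the mitogen that Purkinje cells send to GCPs, was at 4.42, 1.43, 0.972 and 1.21 CPM in the tumors, 3.68 to 5.47 in P7 cerebella and 1.83 to 4.09 in SHH MB. Purkinje cells form stripes told apart by zebrin II, the product of Aldoc. Of the 5 genes of zebrin-positive stripes, Plcb3 rose against P7 cerebella (log2 fold change 1.30, edgeR adjusted p = 0.0167), higher in all 4 tumors at 54.3 to 88.9 against 28.4 to 31.6 CPM, and Aldoc, which astrocytes also make, rose against SHH MB (2.76, adjusted p = 0.0431). In these 2 comparisons 3.99% and 2.43% of all genes were called higher. Both genes passed without tumor 1 as well (1.11 and 1.90, edgeR adjusted p = 0.00456 and 0.0437), where 9.64% and 5.0% of all genes were called higher. DESeq2 called 2 of the 5 higher against P7 cerebella and 4 against SHH MB (10.4% and 6.71% of all genes), and limma 1 and 0 (3.08% and 1.59%). Of the 5 genes of zebrin-negative stripes 0 were called in edgeR (0, 3 and 1 at an unadjusted p under 0.05, in the same order of comparisons). DESeq2 called 0 against P7 cerebella and 1 against SHH MB, and limma 0 in both.

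Among the 10 genes whose log2 CPM followed the mean of the markers most closely over the 10 libraries were Gad1 (r = 0.995), Cacnb2, Shisa6, Plekhb2, Pgbd5, Cend1, Sv2a, Ppp1r16b and Inpp4a (0.986). Gad1, which makes GABA in Purkinje cells and other inhibitory neurons, was at 648, 142, 16.5 and 120.0 CPM in tumors 1 to 4, 97.8 to 106 in P7 cerebella and 18.6 to 49.9 in SHH MB. In tumors 2 and 4 it was above all P7 cerebella, whereas Calb1 stood there at 95.2% and 78.0% of the P7 mean.

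Markers of some other cells moved in the same order of tumors. The 12 inhibitory interneuron genes, Gad1 among them, summed to 2881, 798, 135 and 671 CPM in tumors 1 to 4, 701 to 762 in P7 cerebella and 290 to 418 in SHH MB. Against P7 cerebella 7 of the 12 were fitted higher, and Sst alone was called, lower (log2 fold change -2.62, edgeR adjusted p = 0.0210). Without tumor 1, Pax2, Sst, Slc6a5, Nxph1 and Tfap2b were called lower and 0 higher. Of all genes 2.27% were called lower, and 6.11% without tumor 1. Against SHH MB Lgi2 alone was called, higher (2.90, edgeR adjusted p = 0.0335), where 2.43% of all genes were. Without tumor 1 edgeR called 1 higher and 1 lower there. The 11 genes of mature granule neurons summed to 6982, 2838, 700.4 and 1439 CPM, with 1089 to 1176 and 673 to 816 in the controls; 3 of them rose against P7 cerebella and 6 against SHH MB, where 3.99% and 2.43% of all genes did. DESeq2 called 6 and 9 of the 11, limma 2 and 4, and edgeR without tumor 1 again 3 and 6, where 9.64% and 5.0% of all genes were called. Cbln3, a granule neuron gene, was at 1744, 458, 42.5 and 224 CPM in the tumors and 29.9 to 35.5 in P7 cerebella (log2 fold change 4.27, edgeR adjusted p = 0.0239, and 2.81 without tumor 1). The 10 myelin genes summed to 4169, 849, 123 and 468 CPM, with 964 to 1145 in P7 cerebella and 132 to 402 in SHH MB. The 10 granule precursor genes also ran in this order, at 1069, 934, 564 and 751 CPM. P7 cerebella held 1535 to 1604 CPM of them and SHH MB 2783 to 3309. Their mean log2 CPM was instead lowest in tumor 1, at 3.73, with 4.88 to 5.14 in tumors 2 to 4. The 7 endothelium genes summed to 491, 226, 121 and 194 CPM, again in this order, with 211 to 222 in P7 cerebella and 198 to 246 in SHH MB. Proliferation genes ran otherwise, lowest in tumor 1, and the 10 genes of Bergmann glia and astrocytes summed to 1049.8, 3390.4, 594 and 2411 CPM. These 10 summed to 2860 to 2995 CPM in P7 cerebella and 2281 to 2558 in SHH MB. EdgeR called 3 of them lower than in P7 cerebella and 4 without tumor 1, against 2.27% and 6.11% of all genes. Further lists also ran in other orders. In tumors 1 to 4 the 8 forebrain neuron genes summed to 140, 182, 210 and 248 CPM, with 115 to 121 in P7 cerebella and 101 to 133 in SHH MB. The 7 choroid plexus genes summed to 85.7, 161, 138 and 62.7 CPM, and the 7 microglia genes to 160, 92.6, 38.0 and 106 CPM. The part of these cells in the marker levels was not tested.

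**Figure D5:**
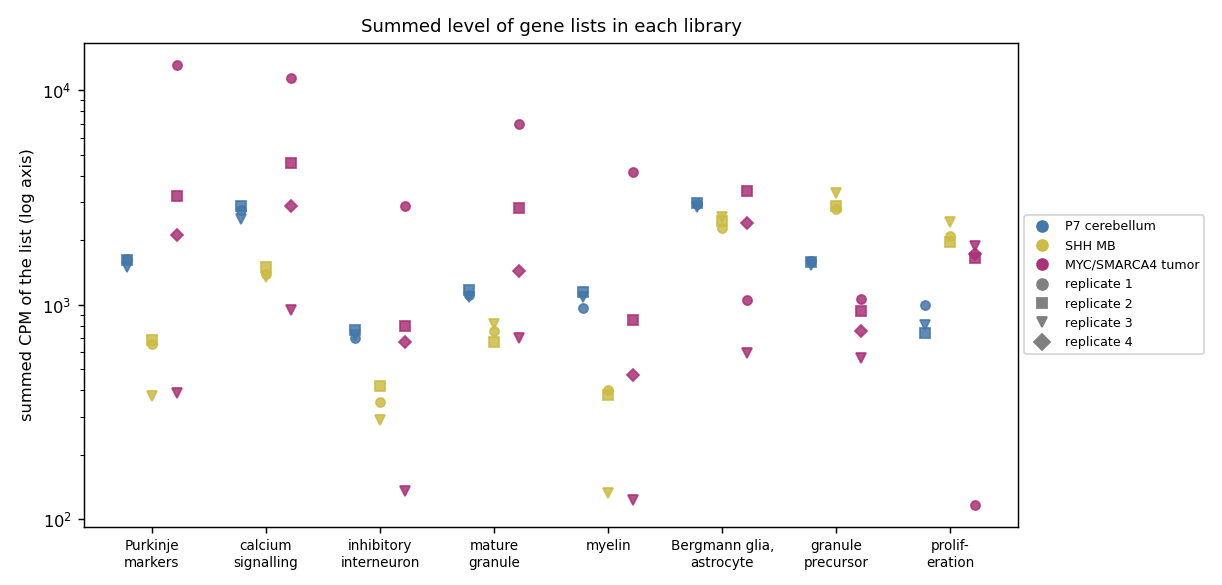
Summed CPM of 8 gene lists (y axis, log scale) in each P7 cerebellum (blue), SHH MB (yellow) and tumor (purple), with symbols by replicate number. Tumor 1 (circle) is the highest tumor and tumor 3 (triangle) the lowest for Purkinje markers, calcium signalling, interneurons, mature granule neurons, myelin and granule precursors, whereas tumor 1 is lowest for proliferation at 117 CPM.

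Pvalb is also a muscle gene, and the 7 other skeletal muscle genes were at 0 to 9.09 CPM in the tumors, with Ckm and Tnnt3 at 0 counts in tumor 2 and Mylpf in tumors 1 and 2, against 8.33 to 568 CPM of Pvalb. Summed, they were at 24.3, 5.89, 28.0 and 11.6 CPM in tumors 1 to 4, which in tumor 3 exceeded the 8.33 CPM of Pvalb, and at 27.3 to 31.7 CPM in P7 cerebella and 14.9 to 25.5 CPM in SHH MB. The 8 genes of cerebellar nuclear neurons summed to 245, 159.9, 48.4 and 122 CPM in the tumors, the same order as the markers, and 169.5 to 228 in P7 cerebella.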

How the data were processed

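RNA was isolated from FFPE tissue, depleted of ribosomal RNA and sequenced by the study as single-end total RNA libraries. Per the labels, the authors checked reads with FastQC 0.73, trimmed them with Trimmomatic 0.38.1, aligned them to GRCm39 with STAR 2.7.8a and counted genes with featureCounts 2.0.1; annotation release and strand setting are not given in the sources used here. The deposited raw counts per gene were used for all values. The deposited log2-scale VST values, made by the authors with DESeq2 (Galaxy version 2.11.40.7), served only as an alternative. Counts were fitted with edgeR 4.0.16 (R 4.3.3) over all 10 libraries in 3 groups, with TMM factors (0.622 to 1.27), filterByExpr (29952 of 50559 genes, all 9 markers) and Benjamini-Hochberg adjustment over all genes tested; log2 CPM used a prior count of 2 and the Pvalb to Calb1 ratio a pseudocount of 0.5. Alternatives used DESeq2 1.42.0, limma 3.58.1, other filters, scalings and thresholds, and leaving out each library; the fits of list genes without tumor 1 were added after seeing the data. Coordinates and sequences are from GRCm39 with GENCODE vM39. The text names all markers, genes of the gene lists, and genes most like the markers; some of these are not reported here. Markers and lists were chosen with earlier results of these data known. The labels do not say whether controls were separate litters, so p-values measure only the spread between these samples, which may be technical; intervals cover the fitted spread.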

Additional observations from a re-analysis of the deposited data

Results flagged for a closer look

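On the CPM scale tumor 1 was far from the other 3 tumors for 5 of the 9 markers. The gap between tumor 1 and the next tumor, as a share of the range over the 4 tumors, was 0.905 for Pcp2, 0.892 for Ppp1r17, 0.890 for Slc1a6, 0.869 for Calb1 and 0.865 for Car8, above Dixon's critical value of 0.829. Chance passes that value in about 1 in 20 groups, and 21 sets of tumor values were examined, among which the 9 markers follow each other. On the log2 scale 0 of the 9 markers had such a gap, and neither did their summed CPM, their share of all counts or the Pvalb to Calb1 ratio.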

How the results depend on the processing

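Over 510 values of single markers under the alternatives, 495 kept their direction. The 15 that turned were all in tumors against P7 cerebella. They were, with limma on the VST values, Pcp2 (-0.73), Calb1 (-0.29), Car8 (-0.66) and Slc1a6 (-0.48), with the replicate block Pcp2 (-0.34), Car8 (-0.013) and Slc1a6 (-0.29), and Slc1a6 with at least 10 counts in every library (-0.23) or with only the 2 groups (-0.10). Over the fits that leave out 1 library, Pcp2 ranged from -1.74 to 0.88, Calb1 from -0.86 to 1.36, Car8 from -1.29 to 1.01 and Slc1a6 from -1.35 to 0.38. The number of markers called in tumors against P7 cerebella was 0, 1 at an adjusted p of 0.10, 3 with DESeq2 and 0 to 4 with 1 library left out. Against SHH MB it was 4, 0 under the study's thresholds (log2 fold change of 2.5 and adjusted p of 0.01), with limma or with only the 2 groups, 1 with the replicate block and 0 to 8 with 1 library left out. In SHH MB against P7 cerebella it was 0, 9 with only the 2 groups and 0 to 2 with 1 library left out. The cause was not tested, beyond the smaller number of samples where libraries are left out. The Pvalb to Calb1 log2 ratio differed by 1.79 to 2.08 from P7 cerebella and 2.05 to 2.79 from SHH MB with 1 library left out, with exact permutation p of 0.0667 to 0.1, in designs too small to reach 0.05, and by 2.08 and 2.63 with the replicate block (exact p = 0.25, the smallest possible with 3 pairs). Same-numbered samples did not deviate together (r from -0.27 to 0.16). With so few samples per group this cannot tell whether same-numbered samples were handled together. The replicate block changed no other count. Markers with few counts, such as Ppp1r17 in SHH MB with 8 to 33, are limited by depth.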
